A study of Homo sapiens with 12 samples.

Results

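The 9 genes described here encode transcription factors of neuroendocrine and islet cells: FOXA2, PDX1, NEUROG3, NEUROD1, INSM1, RFX6, NKX2-2, PAX6 and ISL1. They were taken as a named list, with no threshold on a measured value but with earlier results of these data known, from 20136 protein-coding genes on chromosomes 1 to 22, X and Y. For each gene, called peaks were counted within 1, 2.5 and 10 kb of its most 5′ annotated end and of any annotated transcript start, in every library. The study profiled trimethylation of lysine 4 on histone H3 (H3K4me3) by CUT&RUN, in which an antibody directs a nuclease to cut out the DNA fragments around the mark. The cells were BON1, a human pancreatic neuroendocrine tumour line. Control cells were BON1/TGL/pQ, and the compared cells were BON1/TGL/HA-Bcl-xL, which overexpress HA-tagged Bcl-xL, a protein that blocks cell death at the mitochondrion. Both lines thus carried TGL, and both grew in medium with puromycin. The promoter that drives HA-Bcl-xL, and whether each line was 1 clone or a pool, are not given in the sources used here. Each condition used 500000 cells, with an IgG antibody as the background measurement.

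Of 12 labelled samples, 11 peak lists were used: control H3K4me3 replicates 1, 2 and 3, HA-Bcl-xL H3K4me3 replicates 2 and 3, and 3 IgG replicates from each line. Replicate 1 of the HA-Bcl-xL H3K4me3 samples was not analysed here. The H3K4me3 lists held 10247 to 17711 peaks. The IgG lists of replicates 1, 2 and 3 held 1699, 1674 and 2113 peaks in control cells and 268, 266 and 244 in HA-Bcl-xL cells. The background lists of the lines thus did not overlap in length, and the reason was not tested. Control replicate 1 held the most H3K4me3 peaks and control replicate 3 the fewest, so the control libraries spanned both HA-Bcl-xL lists, of 16379 and 15497 peaks. The median H3K4me3 peak was 112 to 128 bp wide, and the fewest fragments at a called summit were 3. Labelled identity was checked against marker genes, by peaks lying at most 1 kb from the 5′ end. Of 12 neuroendocrine markers, CHGB, SCG2 and SCG3 had a peak in all 5 H3K4me3 libraries, and ENO2, PCSK2, UCHL1, NCAM1 and DDC had one in none. The libraries held 3 to 7 of the 12. The 25% with a peak in all 5 is near the 21.3% of all genes, so these counts do not set the line apart as neuroendocrine. None of 5 immune, 5 fibroblast, 4 hepatocyte or 3 annotated endothelial markers had a peak in any H3K4me3 library, and of 7 acinar markers only PTF1A had one, in 1 library. Of 5 ductal markers, SOX9 and MUC1 had a peak in all 5, KRT19 in control replicate 2 alone, and KRT7 and CFTR in none (40% in all 5, of only 5 genes); 1 of the 5 had an IgG peak. Of 10 constitutively expressed genes, 3 had a peak in no library, HPRT1 and YWHAZ among them, so a gene without a called peak in these lists is not read as a gene without the mark.

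H3K4me3 is laid down around the start sites of active and poised genes, usually on the nucleosomes just downstream of the start. In the developing pancreas FOXA2, a pioneer factor of the endoderm, and PDX1, a homeodomain factor of the pancreatic bud and later of beta cells, act early. NEUROG3 then starts the endocrine programme and switches on NEUROD1, INSM1 and RFX6, while NKX2-2, PAX6 and ISL1 maintain the identities of hormone-producing cells. Several of these factors are used by pathologists to recognise neuroendocrine tumours.

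Within 1 kb of the 5′ end, NEUROD1 and RFX6 had an H3K4me3 peak in all 5 libraries, as did 21.3% of the 20136 genes. PDX1 had one in 4 of 5 libraries, and the other 6 genes had one in none, as did 51.8% of all genes. Thus 3 of 9 had a peak in at least 1 library, against 48.2% of all genes. Widening the window to 2.5 kb added INSM1 in all 5 libraries and FOXA2 in 4, which gave 3 of 9 in all 5 (25.6% of all genes) and 5 of 9 in at least 1 (53.5%). At 10 kb NKX2-2 joined in 3 libraries, which gave 6 of 9 in at least 1 (60.5%). The 3 genes left, PAX6, ISL1 and NEUROG3, had no peak within 10 kb of any annotated transcript start in any library; 34.7% of all genes had none at that distance. Counted from any transcript start within 1 kb, FOXA2 was added and 4 of 9 had a peak in at least 1 library, against 56.6% of all genes. In total 57 H3K4me3 peaks lay within 10 kb of the 5′ ends of 6 of the genes, with 8 to 30 fragments at their summits.

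**Figure D1:**
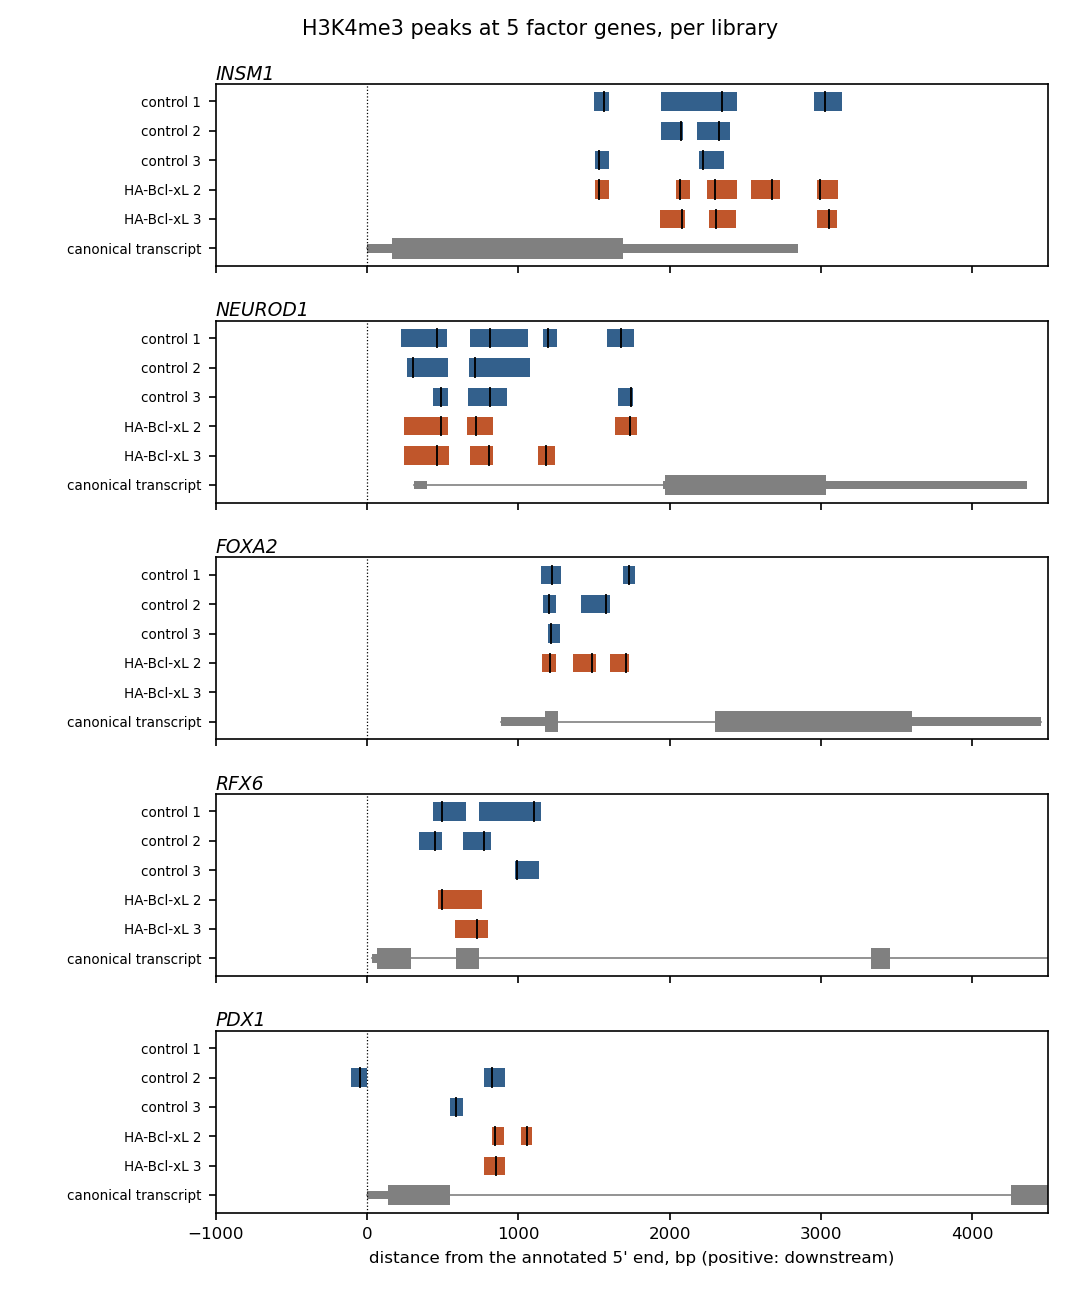
Each bar is a called H3K4me3 peak, placed by its distance in bp from the annotated 5′ end of the gene, with 1 line per library (control in blue, HA-Bcl-xL in orange). Nearly all peaks of INSM1, NEUROD1, FOXA2, PDX1 and RFX6 sat downstream of the 5′ end, and PAX6, ISL1 and NEUROG3 had none.

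No IgG library had a peak within 10 kb of any transcript start of any of the 9 genes, while 9.06% of all genes had such a peak in at least 1 IgG library. Within 1 kb of the 5′ end, the control H3K4me3 libraries held 2, 3 and 3 of the genes, a mean of 2.67 ± 0.577 (SD, n = 3), and the 3 control IgG libraries held 0. The 2 HA-Bcl-xL H3K4me3 libraries held 3 each and their 3 IgG libraries 0. H3K4me3 and IgG libraries did not overlap in either line; 0.785% of all genes had an IgG peak at this distance. The exact two-sided permutation test gave p = 0.1 in control cells and p = 0.2 in HA-Bcl-xL cells, and these numbers of libraries allow no smaller value (both 0.3 after Benjamini-Hochberg adjustment over 3 tests).

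The stretches below were covered by peaks of 3 or more libraries and hold no untranslated bases, and are shown to let the DNA under recurrent peaks be compared. For INSM1 the site with a peak in all 5 libraries lies in the 3′ untranslated part and is described by its values instead. Each is written 5′ to 3′ on the gene's own strand from hg19, with CG dinucleotides, the site of DNA methylation, in capitals. CG reads the same on both strands.
NEUROD1 chr2:182544724-182544875: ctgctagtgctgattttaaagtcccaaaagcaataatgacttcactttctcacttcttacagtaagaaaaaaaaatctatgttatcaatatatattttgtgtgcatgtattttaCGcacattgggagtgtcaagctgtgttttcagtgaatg
RFX6 chr6:117199010-117199135: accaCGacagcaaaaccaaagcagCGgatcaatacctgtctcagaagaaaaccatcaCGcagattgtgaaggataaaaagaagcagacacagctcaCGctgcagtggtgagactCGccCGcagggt
INSM1 chr20:20350252-20350343: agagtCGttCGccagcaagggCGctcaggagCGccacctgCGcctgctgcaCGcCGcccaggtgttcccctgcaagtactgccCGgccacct
FOXA2 chr20:22564847-22564897: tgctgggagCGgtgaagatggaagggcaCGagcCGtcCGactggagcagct
PDX1 chr13:28494964-28495038: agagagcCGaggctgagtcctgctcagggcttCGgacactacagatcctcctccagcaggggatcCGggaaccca
The NEUROD1 stretch, 152 bp of intron, lay under a peak in all 5 libraries, was 32.9% GC and held 1 CG; windows of the same length centred on the 5′ ends of all genes held a median of 11, and 94.5% held at least 1. The RFX6 stretch is 126 bp long, of which 106 are coding and 20 intronic, and held 6 CG (median of such windows 9, with 93% holding at least 1). The INSM1 stretch is 92 bp of coding sequence, was covered in 3 libraries and held 8 CG (median 7, 90.2%). The FOXA2 stretch is 51 bp of coding sequence, was covered in 4 libraries and held 4 CG (median 3, 83.2%). The PDX1 stretch is 75 bp of intron, was covered in 3 libraries and held 3 CG (median 5, 87.9%). Of the 5 stretches shown, NEUROD1 was the poorest in CG, but some other NEUROD1 peaks were richer. Those over its first exon, in control replicates 1 and 2 and HA-Bcl-xL replicates 2 and 3, held 5.19 to 6.12 CG per 100 bp. The peaks at 1165 to 1254 bp in control replicate 1 and 1132 to 1243 bp in HA-Bcl-xL replicate 3 held 11.1 and 9.82. The INSM1 stretch does not stand for that gene's most recurrent site: the peaks there, one in each of the 5 libraries, were 40 to 43.2% GC with 0.599 to 2.61 CG per 100 bp, against 8.42 to 9.09 in the peaks at the coding stretch.

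FOXA2 (ENSG00000125798.15_13, chr20:22561636-22566093, minus strand) has 2 annotated starts, and its principal transcript begins 883 bp downstream of the 5′ end. Control replicates 1, 2 and 3 and HA-Bcl-xL replicate 2 each had a narrow peak over the first coding segment, which runs from 1177 to 1263 bp, with summits at 1220, 1202, 1216 and 1212 bp. These 4 summits, which lay close together, carried 14, 17, 12 and 17 fragments. HA-Bcl-xL replicate 3 had no peak there, and its nearest peak was 479.8 kb away. Further intragenic peaks were called at 1690 to 1770 bp in control replicate 1, at 1416 to 1608 bp in control replicate 2, and at 1364 to 1511 and 1605 to 1729 bp in HA-Bcl-xL replicate 2. Control replicate 1 and HA-Bcl-xL replicate 2 also had a peak from 7492 to 7657 bp and from 7479 to 7556 bp. These last lie just inside LINC00261, a long non-coding RNA on the same strand whose starts are annotated at 6813 to 6892 bp.

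PDX1 (ENSG00000139515.6_6, chr13:28494137-28500450, plus strand) had peaks of 8 to 13 fragments at their summits. Its highest-ranked peak within 2.5 kb stood at or above 42.27% of the control replicate 2 list by −log10 p. That share was 45.21% for control replicate 3, 57.05% for HA-Bcl-xL replicate 2 and 74.98% for HA-Bcl-xL replicate 3. In control replicate 2 a peak of 9 fragments covered -110 to -3 bp, just upstream of the start, and a further one of 8 fragments covered 774 to 909 bp downstream. Control replicate 3 had 1 peak, of 8 fragments, at 548 to 630 bp. HA-Bcl-xL replicate 2 had peaks at 827 to 901 bp (9 fragments) and 1018 to 1090 bp (11 fragments), and HA-Bcl-xL replicate 3 had 1 at 771 to 908 bp (13 fragments). The peaks downstream of the start lay in the first intron, which begins after 544 bp, and the peak upstream of it was the only one of 47 peaks within 2.5 kb of these 9 genes whose summit lay upstream. Control replicate 1 had no PDX1 peak, although its list was the longest; its nearest peak was 40.9 kb away. When every list was shortened to its 10247 highest-ranked peaks, PDX1 kept a peak in control replicates 2 and 3 and in 1 HA-Bcl-xL library.

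NEUROG3 (ENSG00000122859.5_9, chr10:71331454-71333178, minus strand), the factor that commits progenitors to the endocrine fate and is then shut off, had no peak nearby. The nearest called peak lay 56.7 kb away in control replicate 1 and HA-Bcl-xL replicate 2, and 121.4 kb away in the other 3 libraries.

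NEUROD1 (ENSG00000162992.5_8, chr2:182533022-182545554, minus strand), a basic helix-loop-helix factor that acts after NEUROG3 and drives insulin and secretory genes, had 15 peaks. Its principal transcript starts 310 bp downstream of the 5′ end, with a short non-coding exon from 310 to 397 bp and an intron to 1956 bp. A peak covering that exon was called at 221 to 525 and 266 to 535 bp in control replicates 1 and 2, and at 243 to 536 and 243 to 541 bp in HA-Bcl-xL replicates 2 and 3. These peaks carried 22, 14, 21 and 18 fragments in the same order, so the lines overlapped. In control replicate 3 the nearest peak lay wholly in the intron, at 433 to 533 bp, with 13 fragments. The next intronic peak in each of the 5 libraries, from 659 bp at the nearest to 1076 bp at the farthest, carried 26, 22, 23, 27 and 17 fragments. Control replicate 1 and HA-Bcl-xL replicate 3 had a further peak at 1165 to 1254 and 1132 to 1243 bp, with 25 and 16 fragments. A last intronic peak, between 1587 and 1783 bp, was called in control replicates 1 and 3 and in HA-Bcl-xL replicate 2, with 23, 15 and 30 fragments. The percentile rank of a peak is the share of its own list with an equal or lower −log10 p. Within 1 kb the highest-ranked NEUROD1 peak stood at 78.1, 86.1 and 91.6 in control replicates 1, 2 and 3, and at 88.9 and 58.4 in HA-Bcl-xL replicates 2 and 3. NEUROD1 therefore stood in the upper part of 4 lists and nearer the middle of HA-Bcl-xL replicate 3. CERKL, the ceramide kinase-like gene, has annotated starts on the same strand at 162, 186 and 337 bp, so these peaks cannot be assigned to NEUROD1 alone. By likeness of ranks over the 5 libraries CERKL was nearest, with a mean absolute difference of 0 because it shares the peaks, followed by PARK7 with 4.2 percentile points.

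INSM1 (ENSG00000173404.5_6, chr20:20348748-20351593, plus strand), a zinc-finger factor used as a stain for neuroendocrine tumours, is a single-exon gene of 2846 bp. It had 15 peaks and none of them within 1 kb of its start. Control replicates 1 and 3 and HA-Bcl-xL replicate 2 had a peak at the end of the coding sequence, from 1501 to 1599, 1504 to 1595 and 1504 to 1598 bp, with 17, 18 and 16 fragments. All 5 libraries had a peak in the 3′ untranslated part, which runs from 1694 to 2845 bp. Its summit lay at 2347, 2326 and 2223 bp in control replicates 1, 2 and 3, and at 2301 and 2304 bp in HA-Bcl-xL replicates 2 and 3. These carried 30, 22 and 12 fragments in control cells and 30 and 22 in HA-Bcl-xL cells, so the lines overlapped. Their percentile ranks were 89.9, 82.3 and 20.7 in control cells and 94.5 and 80.8 in HA-Bcl-xL cells, with control replicate 3 far down its list. Peaks just past the 3′ end of the gene, at 2957 to 3140, 2978 to 3113 and 2972 to 3104 bp, were called in control replicate 1 and HA-Bcl-xL replicates 2 and 3. INSM2, a relative of INSM1, had a peak within 1 kb in all 5 libraries, with summits at -182 to -123 bp from its 5′ end.

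RFX6 (ENSG00000185002.10_10, chr6:117198375-117253324, plus strand), a winged-helix factor needed to form most islet cell types, had 7 peaks, none of them over its first exon. Of these, 5 touched the second exon, which is coding from 584 to 740 bp, and the first peak of control replicate 2 and the peak of control replicate 3 were wholly intronic. They ran from 437 to 652 and 737 to 1146 bp in control replicate 1, from 342 to 496 and 635 to 820 bp in control replicate 2, from 975 to 1132 bp in control replicate 3, from 466 to 760 bp in HA-Bcl-xL replicate 2, and from 580 to 799 bp in HA-Bcl-xL replicate 3. The highest-ranked of these carried 13, 11 and 10 fragments in control cells and 13 and 14 in HA-Bcl-xL cells. Their percentile ranks were 45.0, 41.8 and 43.5 in control cells and 57.9 and 66.3 in HA-Bcl-xL cells. The ranks come from lists of different length and were not tested between lines. The genes most like RFX6 in rank over the 5 libraries were CD46, with a mean absolute difference of 3.68 percentile points, and JADE1, with 4.54.

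NKX2-2 (ENSG00000125820.6_9, chr20:21491655-21494702, minus strand), a homeodomain repressor that keeps beta cells from other islet fates, had no peak within 2.5 kb. Further upstream, peaks were called at -6894 to -6729 bp from the 5′ end in control replicate 1 (15 fragments), at -6929 to -6737 bp (11 fragments) and at -7366 to -7284 bp (8 fragments) in HA-Bcl-xL replicate 2, and at -7451 to -7284 bp in HA-Bcl-xL replicate 3 (11 fragments). A long non-coding RNA on the same strand, ENSG00000289431, has starts at -8585, -7725 and -7721 bp, and the summits lay 389 to 962 bp inside it. In control replicates 2 and 3 the nearest peaks were 209.9 and 113.9 kb away.

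PAX6 (ENSG00000007372.25_19, chr11:31806327-31839509, minus strand), a paired-box factor of eye, brain and islet cells, has 66 distinct annotated starts over 81 transcripts, the last of them 23835 bp downstream of the 5′ end. None had a peak within 10 kb, and the nearest peak to the 5′ end was 307.3 to 308.2 kb away in 4 libraries and 43.2 kb in HA-Bcl-xL replicate 3. ISL1 (ENSG00000016082.15_6, chr5:50679282-50690564, plus strand), a LIM-homeodomain factor of islet cells and motor neurons, was farther from any peak than the other 8 genes in the control libraries and in HA-Bcl-xL replicate 2; in HA-Bcl-xL replicate 3 FOXA2 was farther. The nearest lay at 714.4, 714.9 and 577.9 kb in control replicates 1, 2 and 3, and at 714.9 and 123 kb in HA-Bcl-xL replicates 2 and 3.

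**Figure D2:**
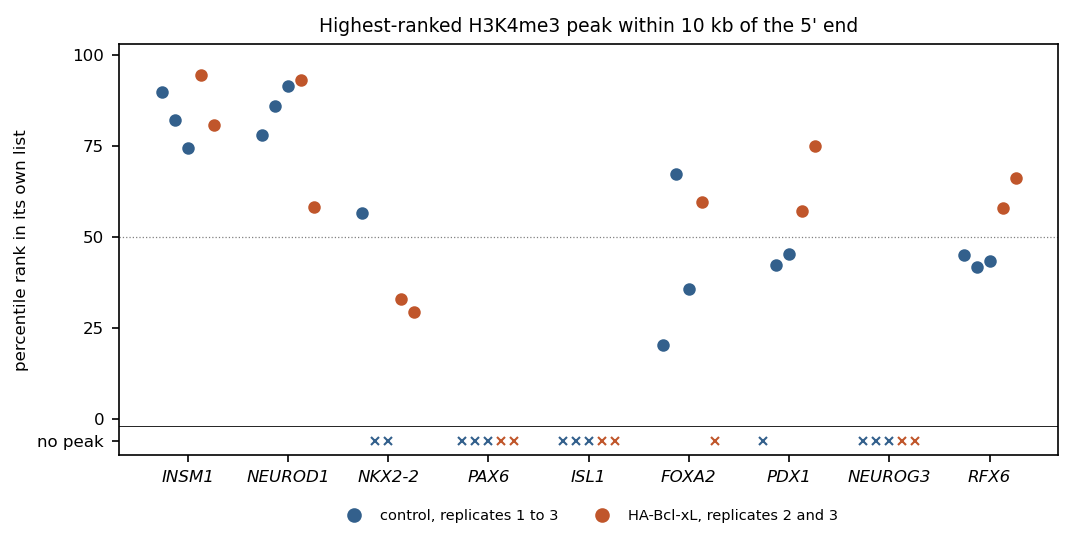
Percentile rank, within its own list, of the highest-ranked H3K4me3 peak within 10 kb of each gene's 5′ end, with 1 point per library (control in blue, HA-Bcl-xL in orange). The NKX2-2 points are of peaks farther than 2.5 kb from its 5′ end. NEUROD1 peaks ranked between 58.4 and 93.2, and the INSM1 value of 74.4 is that of control replicate 3.

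The 5 genes with a peak within 2.5 kb differed in how far its summit lay from the 5′ end. For each gene the summit of the highest-ranked peak within 2.5 kb was taken in each library, and the median over libraries was used. Over the 5151 genes with such a peak in all 5 libraries, the median summit lay 110 bp downstream of the 5′ end, with quartiles at -60.5 and 712 bp. INSM1 had its median summit at 2304 bp (lowest 1530, highest 2347, n = 5), and 99.4% of those genes lay at or below it. FOXA2 stood at 1214 bp (1202 to 1220, n = 4; 90.7% at or below), NEUROD1 at 809 bp (459 to 1739, n = 5; 79.5%), RFX6 at 771 bp (497 to 1102, n = 5; 77.8%) and PDX1 at 720.5 bp (-48 to 1058, n = 4; 75.4%). Counted from the most 5′ annotated end, all 5 medians lay beyond the upper quartile. The principal starts of FOXA2 and NEUROD1 lie 883 and 310 bp further in, and counted from those starts both medians would fall below 712 bp. The quartile itself was counted from the most 5′ end of every gene and was not recounted from principal starts, so these are unlike measures. These 5 positions are given as a description, with no test.

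**Figure D3:**
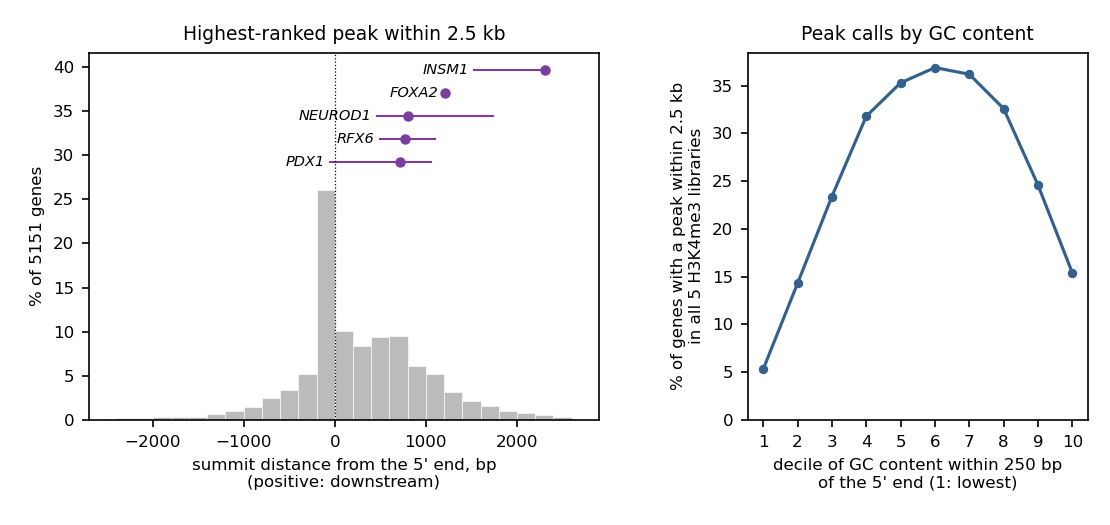
Histogram of the median summit position, in bp from the 5′ end, of the highest-ranked H3K4me3 peak within 2.5 kb over 5151 genes, with the genes named here marked. INSM1 lies at the far downstream end of the distribution, and FOXA2, NEUROD1, RFX6 and PDX1 lie above its upper quartile of 712 bp when counted from the most 5′ end.

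Base composition differed among the 9 genes. Within 250 bp of the 5′ end, INSM1 was 77.8% GC, higher than or equal to 95.2% of genes, and RFX6 was 72.9% (85.4% of genes). PAX6, NEUROG3, PDX1, NEUROD1 and ISL1 ranged from 68.1 to 61.9%, and NKX2-2 and FOXA2 were at 58.1 and 57.1%. When all genes were divided into 10 equal classes by this GC content, the share with a peak within 2.5 kb in all 5 libraries was 5.31% in the lowest class, 36.9% in the sixth and 15.4% in the highest. Median summit position moved too, from 845 bp downstream in the lowest class to 2.5 bp in the sixth and 726 bp in the highest. INSM1 belongs to the highest class and RFX6 to the ninth (24.6%, 506 bp). The genes with no peak within 2.5 kb were not at either extreme: NKX2-2, ISL1, NEUROG3 and PAX6 belong to classes in which 31.8, 36.9, 36.2 and 32.6% of genes had a peak in all 5 libraries. The peaks themselves were less GC-rich than the start at RFX6 (26.6 to 48.4% GC) and INSM1 (40 to 69.6%), while PDX1 peaks were 61.6 to 76.9% GC. The part of base composition in the peak positions, and in the genes without a peak, was not tested.

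Between the lines, none of the 9 genes had a peak within 1 kb in each of the HA-Bcl-xL lists while lacking one in all control lists, a pattern that 0.844% of all genes showed. None had the opposite pattern, shown by 0.248%. The number of these genes with a peak within 1 kb differed by 0.333 (HA-Bcl-xL minus control, 3 ± 0, n = 2, against 2.67 ± 0.577, n = 3; exact two-sided permutation p = 1, with 0.2 the smallest possible). The difference came from PDX1 in control replicate 1 alone, and was 0 without that library. Counted within 2.5 kb it was -0.167, where FOXA2 was missing from HA-Bcl-xL replicate 3.

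The bases under all peaks within 2.5 kb gave a value that could be compared with its spread. They were summed over separate peaks and are not the width of a single peak. Bases under H3K4me3 peaks within 2.5 kb of INSM1 were 597, 369 and 259 in control replicates 1, 2 and 3, and, in the 2 HA-Bcl-xL libraries, 384 and 342, with means of 408 ± 172 (SD, n = 3) and 363 ± 29.7 (SD, n = 2). At NEUROD1 they were 953, 675 and 456 in control cells and 608 and 566 in HA-Bcl-xL cells, with means of 695 ± 249 and 587 ± 29.7. At RFX6 they were 626, 341 and 158 in control cells and 295 and 220 in HA-Bcl-xL cells, with means of 375 ± 236 and 258 ± 53. In all 3 genes control replicate 1 was highest and control replicate 3 lowest, as in the numbers of peaks in their lists, and both HA-Bcl-xL values fell inside the control range. Over the 5151 genes the median was 251 bases; NEUROD1, with a median of 608, was at or above 97.5% of them, INSM1 at or above 79.5% and RFX6 at or above 63.5%.

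**Figure D4:**
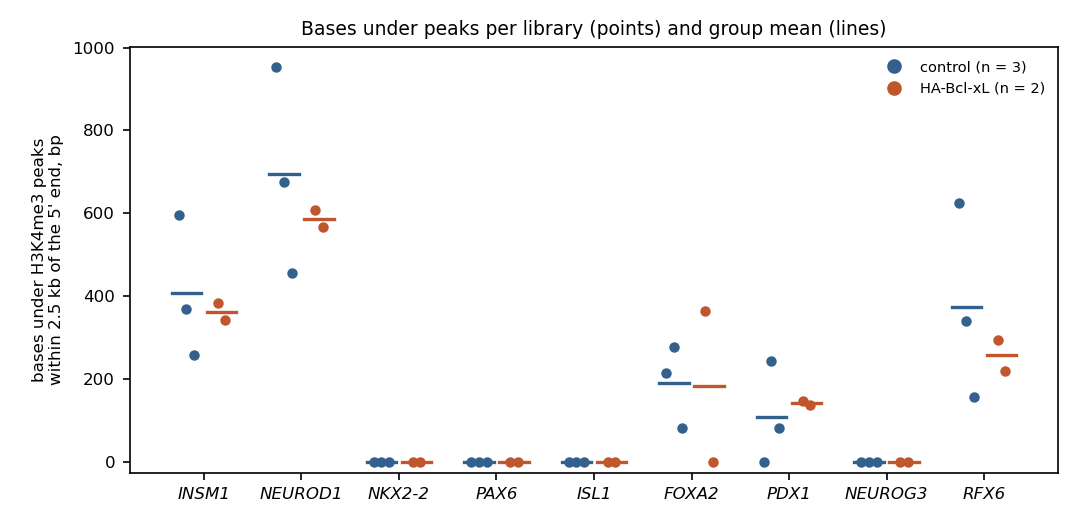
Bases under H3K4me3 peaks within 2.5 kb of the 5′ end of each gene, with 1 point per library and a line at the mean of control (blue, n = 3) and HA-Bcl-xL (orange, n = 2). The HA-Bcl-xL points of INSM1, NEUROD1 and RFX6 lie inside the range of the control points.

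These 3 genes entered a limma fit over all 5151 genes, on log2 bases with each library centred on its median. The log2 difference (HA-Bcl-xL minus control) was -0.21 (SE 0.41, 95% interval -1.06 to 0.65) at INSM1, -0.30 (SE 0.41, -1.15 to 0.56) at NEUROD1 and -0.46 (SE 0.44, -1.39 to 0.47) at RFX6. The limma adjusted p was 0.996 for each. The signs of INSM1 and RFX6 turned under other settings, to 0.29 and 0.032 with only peaks of −log10 q of 5 or more. No gene of the 5151 passed an adjusted p of 0.05 (0%), and 269 had an unadjusted p under 0.05. Without HA-Bcl-xL replicate 2 the fit called ETV5 and GNB1, and without replicate 3 it called ABL1, ENSG00000288570 and GNB1, names given after their values were seen; the lone HA-Bcl-xL library was then assumed to vary like the control libraries. The other genes had no such bases in 1 or more libraries: FOXA2 had 216, 278 and 82 in control cells and 365 and 0 in HA-Bcl-xL cells, and PDX1 had 0, 244 and 83 in control cells and 148 and 138 in HA-Bcl-xL cells.

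Among 48 other transcription factors of pancreatic, islet and neuroendocrine cells, 8 had a peak within 1 kb in all 5 H3K4me3 libraries (16.7%, against 21.3% of all genes), and 30 had one in none, against 51.8% of all genes. Each library held 9 to 14 of them. Among the 8 were the hepatocyte nuclear factors HNF4A and HNF4G, the FOXA2 relatives FOXA1 and FOXA3, the duct and progenitor factor SOX9, the inhibitor of basic helix-loop-helix factors ID1, and INSM2. By percentile rank of the highest peak within 1 kb, ID1 ranged from 78.5 to 95.6, INSM2 from 69.5 to 84.8 and HNF4A from 53.6 to 75.7. FOXA3 ranged from 51.5 to 94.4, FOXA1 from 31.5 to 79.3, SOX9 from 16.1 to 87.5 and HNF4G from 15.1 to 88.1. FOXA1 and FOXA3 thus had a peak at most 1 kb from the 5′ end in every H3K4me3 library, and FOXA2 in none; counted from any annotated start, FOXA2 had one in 4 of the 5. Among those with no peak within 1 kb in any library were the islet factors NKX6-1 and PAX4, the serotonergic factor FEV, and REST, the repressor of neuronal genes. For none of the 48 did the lines separate, with a peak in every library of one and in no library of the other (0.844% of all genes in HA-Bcl-xL cells alone and 0.248% in control cells alone), and none had an IgG peak within 1 kb (0.785%).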

How the data were processed

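H3K4me3 and IgG CUT&RUN libraries of BON1 lines were deposited by the authors as narrowPeak lists, 1 per library. The submitters' processing notes name bcl2fastq 2.20, Trimmomatic 0.36, Bowtie2 2.2.9, MACS2 2.1.1, deepTools 3.5.1 and build hg19; the control library and the treatment of duplicates are not given in the sources used here. Deposited values per peak were a score (the integer part of 10 times −log10 q), a fold enrichment ratio over background, and −log10 p-values and q-values; they describe and rank peaks within a list. Fragments at a summit were solved from the deposited fold and −log10 p (tolerance 0.001), on the assumption that the fold is fragments over background with 1 added to each; this solved 99.94 to 99.97% of peaks in the H3K4me3 lists, 95.9 to 99.86% in the IgG lists and all 57 near the 9 genes. Peaks were placed on GENCODE release 44 lifted to GRCh37, in 1-based coordinates, with Python 3.11.15, pandas 2.3.3 and pysam 0.24.0; offsets count from the 5′ end. Differences between lines were tested over libraries, by exact permutation for counts and by limma 3.58.1 (R 4.3.3) for bases under peaks. The limma fit took genes with such bases in all 5 H3K4me3 libraries, with Benjamini-Hochberg adjustment. It was tried on simulated data with larger changes than those seen at the genes named here. The permutation test was checked on 1 worked example only. Where replicates came from is not stated, so p-values measure only the spread between these libraries, and fragment numbers carry counting error only. The genes and comparison lists were chosen with earlier results of these data known. All 9 genes are named; of 48 related factors, those with a peak in every H3K4me3 library or in only 1 line are given values, and 2 genes of most similar rank are named for each gene with a peak within 1 kb in every library. Values of some listed genes are not reported here. The related factors without a peak were named as examples after the values were seen. Alternatives were other windows and starts, summit position, equal list lengths, a −log10 q of at least 5, removal of IgG-overlapping peaks, no centring, a replicate block and each library left out. RefSeq promoter entries exist here for 5 of the 9 genes and were not used.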

Additional observations from a re-analysis of the deposited data

How the results depend on the processing

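Of the values under other settings, 41 neither changed sign nor crossed the threshold, 8 changed sign and 1 moved; with 1 library left out, 39 neither changed sign nor crossed it and 2 moved. Among those that did not change sign, the difference between lines in the number of the 9 genes with a peak fell to 0 with the replicate block and without control replicate 1. The difference in the number of the 9 genes with a peak within 1 kb (0.333, HA-Bcl-xL minus control) became -0.167 with a 2.5 kb window, with any transcript start and with equal list lengths, and ranged from 0 to 0.5 with 1 library left out. With 1 library left out, H3K4me3 minus IgG ranged from 2.5 to 3 in control cells and was 3 in HA-Bcl-xL cells; with peaks within 2.5 kb, within 10 kb and within 1 kb of any start it was 4.67, 5 and 3.67 in control cells and 4.5, 5.5 and 3.5 in HA-Bcl-xL cells. The number of genes with a peak in all 5 libraries ranged from 2 to 3, with PDX1 added when control replicate 1 was left out. The log2 difference in bases became 0.34 at INSM1 within 10 kb and 0.29 with a −log10 q of at least 5. At RFX6 it became 0.53 within 1 kb, 0.032 with a −log10 q of at least 5 and 0.12 with equal list lengths. The cause was not tested. With 1 library left out it ranged from -0.29 to -0.13 at INSM1, -0.37 to -0.25 at NEUROD1 and -0.78 to -0.22 at RFX6; limma calls ranged from 0 to 3 genes, none of them among the 9.

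The labels give the lines the same replicate numbers without saying that a number marks a pair. Deviations of same-numbered libraries from their line means correlated at 0.0045 and 0.0297 over 5151 genes; the deviations of the 2 HA-Bcl-xL libraries are equal and opposite by construction, so these values cannot show a pairing or its absence. With a replicate block, which left few libraries to measure spread, limma called 2 genes (ETV5 and GNB1). The log2 differences were then -0.12 at INSM1, -0.27 at NEUROD1 and -0.21 at RFX6. The block gave a difference of 0 in the number of genes between lines. Control replicate 1 has no HA-Bcl-xL partner and did not enter that difference. For H3K4me3 minus IgG the block gave 2.67 (exact permutation p = 0.25) in control cells and 3 (exact permutation p = 0.5) in HA-Bcl-xL cells. These p-values are the smallest that the same-numbered libraries allow. Read totals are not known here, so the part of depth in a missing peak was not tested; the fewest fragments at a summit, among peaks whose fragments could be solved, were 3.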
